A study of Mus musculus with 21 samples.

Results

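The genes described here are the 4 Janus kinase genes of the mouse, Jak1, Jak2, Jak3 and Tyk2, and 4 genes for the transcription factors they activate, Stat3, Stat5a, Stat5b and Stat6. They were chosen by name as the core of cytokine signalling, with earlier results of these data known. They are 8 of the 14698 genes held by at least 1 of the study's 4 expression tables. All 8 passed the authors' filter on low expression in every table, as did 9973 genes in all. Janus kinases sit on the inner tails of cytokine receptors that have no kinase of their own. When a cytokine joins the receptor chains, the kinases phosphorylate each other, the receptor and the STAT proteins, which pair up, enter the nucleus and bind DNA. Among the genes that STAT proteins switch on are inhibitors of the same route, the SOCS genes, and in blood cells this route carries survival and growth signals such as that of interleukin-3.

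RNA was measured by bulk sequencing in 21 libraries, 3 in each of 7 groups. Every group is the mouse pro-B line Ba/F3, which normally needs interleukin-3, carrying a human JAK2-V617F cDNA brought in by a retroviral vector. V617F is the substitution that leaves JAK2 active without a cytokine, and the Jak2 values below are those of the mouse gene. The share of reads from the human cDNA counted as mouse Jak2 was not tested. The question the comparisons address is how the RNA of these cells answers ruxolitinib, which binds the active form of the JAK1 and JAK2 kinases, and CHZ868, which binds an inactive form of JAK2, during exposure and after removal. In DMSO_treated, CHZ_treated and Ruxo_treated, cells had DMSO, CHZ868 or ruxolitinib for 6 h, each inhibitor at 1 µM. In CHZ_wash and Ruxo_wash, cells had 1 µM of CHZ868 or ruxolitinib for 1 h, were washed with PBS and stood 6 h without it. DMSO_wash_exp3 is the DMSO control of CHZ_wash, and DMSO_wash that of Ruxo_wash.

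Values are log2 CPM as deposited, that is, read counts scaled to the library total, on a log scale. CHZ_treated and DMSO_treated share a table of 11670 genes, CHZ_wash and DMSO_wash_exp3 one of 11355, and Ruxo_wash and DMSO_wash one of 13085, while Ruxo_treated has a table of its own with 11868. The tables were normalized apart from each other, so tests were made inside a table or on the difference between effects that were each taken inside a table. In 15 libraries the low values correspond to whole reads within 0.1, which gives depths of 7.88 to 10.7 M reads. The depth of Ruxo_wash and DMSO_wash is unknown. Kallisto on GRCm38 is named in the methods of the paper and STAR on GRCm39 in the submitters' notes, and which of these made which table is not known. The part of this in differences of level between tables was not tested. A gene of the 8 had 276 to 3542 reads in each of the 15 libraries, which by counting alone gives an SD of 0.03 to 0.08 on the log2 scale. The SD between the 3 libraries of a group exceeded that counting SD in 32 of 40 combinations of gene and group, with a median ratio of 1.69.

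Marker genes were compared with the label of the line. Of 8 genes listed for interleukin-3 responsive cells, 6 were in each table, and Csf2rb, the shared chain of the interleukin-3 receptor, was the most abundant, with a mean of 10.52 log2 CPM in the table that holds CHZ_treated. Of 12 B-lineage markers, 2 were in that table, led by Cd79a at 4.33 log2 CPM, and Pax5, Ebf1 and Rag1 were in none of the tables, so the markers that define a pro-B cell are largely absent. From the other lists that table held 1 of 7 T cell genes (Lck, 2.42 log2 CPM), 1 of 11 myeloid and mast cell genes (Csf1r, 2.61) and 0 of 6 fibroblast genes. It held 3 of 8 erythroid and megakaryocyte genes, led by Itga2b at 8.98 log2 CPM. The table of Ruxo_wash held 7 of these 8, led by Hba-a1 at 11.78 log2 CPM. Summed CPM of the B-lineage list was 31.3 ± 2.50 in DMSO_treated and 39.4 ± 0.94 in CHZ_treated (SD, n = 3), and that of the erythroid list 1097 ± 17.7 and 870 ± 2.38. The interleukin-3 responsive list had 3721 ± 26.4 and 3152 ± 146 summed CPM, the myeloid and mast cell list 9.38 ± 2.42 and 4.33 ± 1.92, and none of these 4 lists overlapped between the groups. In Ruxo_treated the B-lineage list, at 38.6 to 44.8 summed CPM, also lay above DMSO_treated, at 29.2 to 34.0. After CHZ868 washout the erythroid list had 777 to 806 summed CPM against 511 to 768 in DMSO_wash_exp3. After ruxolitinib washout all 4 lists separated: the B-lineage list had 31.5 to 33.6 summed CPM against 27.1 to 29.1 in DMSO_wash, the interleukin-3 responsive list 480 to 506 against 553 to 588, the myeloid list 13.9 to 15.1 against 16.7 to 25.1 and the erythroid list 4333 to 4414 against 4841 to 4884. The part of such differences in the results below was not tested, and in bulk RNA fewer cells with a transcript and less RNA per cell cannot be told apart.

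Some libraries stand apart from their group in the share of mitochondrial transcripts. The share was 1.37 to 1.43% in DMSO_treated and 4.94 to 6.38% in CHZ_treated, with no overlap. Ruxo_treated replicate 2 had 3.53% against 1.70 and 1.73% in the other Ruxo_treated libraries, and DMSO_wash_exp3 replicate 3 had 5.35% against 2.28 and 2.85%. Results are given below with and without these libraries where they decide a value. The p-values measure the spread between libraries, which may be technical, since no label says that the libraries came from separate cultures.

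In DMSO_treated cells Tyk2 had the lowest level of the 8 per length. Per kilobase of the longest coding transcript, DMSO_treated cells had 56.0 ± 1.26 CPM of Stat3, the factor behind interleukin-6 and interleukin-10 receptors. Jak2, the kinase of the interleukin-3 and erythropoietin receptors, followed at 49.8 ± 0.89 CPM per kilobase, and Jak1, which serves interferon and interleukin-6 receptors, at 38.2 ± 0.14. The pair that answers interleukin-3, Stat5b at 33.9 ± 0.97 and Stat5a at 31.6 ± 1.61 CPM per kilobase, overlapped in their ranges over the 3 libraries, although Stat5b was the higher of the pair within each library. Stat6, the factor of interleukin-4 receptors, had 26.8 ± 0.74 CPM per kilobase, Jak3, the kinase bound to the common gamma chain Il2rg, had 24.1 ± 0.23, and Tyk2, the kinase of the type I interferon and interleukin-12 receptors, had 11.4 ± 0.39 (SD, n = 3 throughout). Apart from the Stat5 pair, the range of each gene over the 3 libraries lay clear of that of the next. The order depends on the length used: per kilobase of all annotated exons it began with Jak2 at 49.8 and Stat3 at 35.5 CPM, and Tyk2 was still last at 8.05.

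The order of levels per kilobase of the longest coding transcript is given for the other groups, of which those in different tables may have been counted by different pipelines. In CHZ_treated it began with Jak2 at 57.0, Jak1 at 46.5 and Stat3 at 43.9 CPM per kilobase, of which Jak1 and Stat3 overlapped, and it ended with Jak3 at 13.6 and Tyk2 at 9.40. In Ruxo_treated, Stat3 at 54.1, Jak2 at 53.0, Stat5b at 47.3, Stat5a at 45.5 and Jak1 at 42.5 CPM per kilobase each overlapped the next. DMSO_wash_exp3 and CHZ_wash both began with Stat3, at 48.7 and 51.0 CPM per kilobase, and Jak1, at 45.5 and 42.2. In DMSO_wash_exp3, Stat3 and Jak1 overlapped. In the DMSO_wash libraries, Jak2 had 57.2 CPM per kilobase, the next gene, Jak1, had 17.1 and overlapped Stat3 at 16.9, and Stat5b was last at 3.14. Ruxo_wash had the same genes at both ends, with Jak2 at 54.7 and Stat5b at 3.14. Tyk2 was the lowest of the 8 in the 5 other groups.

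CHZ868 for 6 h altered transcripts across the genome, with 6214 of 11670 genes called, 53.2%, by limma with Benjamini-Hochberg adjusted p under 0.05 over the whole table. Of the 8 genes, 6 were called, 3 higher and 3 lower, a share to be read against that 53.2%. Among all genes 26.8% were called higher and 26.4% lower. The groups of the same 6 genes did not overlap, beside 59.7% of all genes. The median log2 fold change of the 8 was -0.05, and that of all genes was -0.01. The median size of change, sign set aside, was 0.29 for the 8 and 0.34 for all genes, so as a set they moved about as much as other genes did.

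Among the kinases, Jak3 moved most. The DMSO_treated libraries had 6.58, 6.59 and 6.61 log2 CPM of Jak3, and the CHZ_treated libraries 5.65, 5.83 and 5.82. All 3 CHZ868 libraries lay below all 3 controls, and the gap was several times the spread in either group. Jak3 fell by 0.83 on the log2 scale, a ratio of 0.563 (SE 0.08, 95% interval -0.998 to -0.659, limma with Benjamini-Hochberg adjusted p 5.78e-07). For Jak1 the DMSO_treated libraries had 7.55, 7.56 and 7.55 log2 CPM and the CHZ_treated libraries 7.86, 7.76 and 7.87. Every CHZ868 library was higher than every control, so the groups did not overlap. Jak1 rose by 0.28 (SE 0.06, interval 0.16 to 0.41, limma with Benjamini-Hochberg adjusted p 0.000920), and by 0.18 when the libraries were quantile normalized, still called.

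Jak2 and Tyk2 also passed the threshold, but with less room. Jak2 had 7.99, 7.94 and 7.98 log2 CPM in DMSO_treated and 8.26, 8.16 and 8.07 in CHZ_treated. The groups did not overlap, though CHZ_treated replicate 3 lay near the controls. Jak2 rose by 0.19 (SE 0.06, interval 0.06 to 0.32, limma with Benjamini-Hochberg adjusted p 0.0154). The call was lost without DMSO_treated replicate 2, where limma with Benjamini-Hochberg gave 0.18 and adjusted p 0.0718, and with quantile normalization, where the change was 0.06 and adjusted p 0.426, and also without the intensity trend of the fit. Tyk2 had 5.84, 5.74 and 5.79 log2 CPM in DMSO_treated and 5.24, 5.70 and 5.54 in CHZ_treated. All CHZ868 libraries were lower, replicate 1 by far the most and replicate 2 by little. Tyk2 fell by 0.30 (SE 0.11, interval -0.53 to -0.06, limma with Benjamini-Hochberg adjusted p 0.0357), and this call is close to the threshold. Without CHZ_treated replicate 1 the change was -0.17, with a limma and Benjamini-Hochberg adjusted p of 0.137. Without DMSO_treated replicate 1, 2 or 3 the change stayed about as large, at -0.27, -0.32 and -0.30, while the adjusted p from limma with Benjamini-Hochberg was 0.112, 0.0674 and 0.0905. The call was also lost without the intensity trend, at -0.30, and with median centring, at -0.27.

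The STAT genes split in direction. Stat3 had 8.40, 8.44 and 8.37 log2 CPM in DMSO_treated and 7.96, 8.06 and 8.13 in CHZ_treated. All CHZ868 libraries were below all controls. Stat3 fell by 0.35 (SE 0.06, interval -0.48 to -0.22, limma with Benjamini-Hochberg adjusted p 0.000168). Stat5a had 6.90, 6.90 and 7.02 log2 CPM in DMSO_treated and 7.27, 7.25 and 7.25 in CHZ_treated. The CHZ868 libraries were nearly alike and all above the controls. Stat5a rose by 0.32 (SE 0.06, interval 0.18 to 0.46, limma with Benjamini-Hochberg adjusted p 0.000709). Jak1, Jak3, Stat3 and Stat5a were called in all 15 settings tried, which include leaving out each library in turn.

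Stat5b and Stat6 were not called. Stat5b had 7.43, 7.45 and 7.51 log2 CPM in DMSO_treated and 7.59, 7.45 and 7.42 in CHZ_treated. The groups overlapped, with CHZ_treated replicate 1 the highest and replicate 3 the lowest of the 6 libraries. Its log2 fold change was 0.02 (SE 0.06, interval -0.11 to 0.16), and with quantile normalization -0.09. Stat6 had 6.62, 6.69 and 6.67 log2 CPM in DMSO_treated and 6.30, 6.68 and 6.61 in CHZ_treated. CHZ_treated replicate 1 was low, replicate 3 lay just under the controls and replicate 2 among them. Its log2 fold change was -0.13 (SE 0.09, interval -0.32 to 0.06), and it was -0.015 without CHZ_treated replicate 1.

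**Figure D1:**
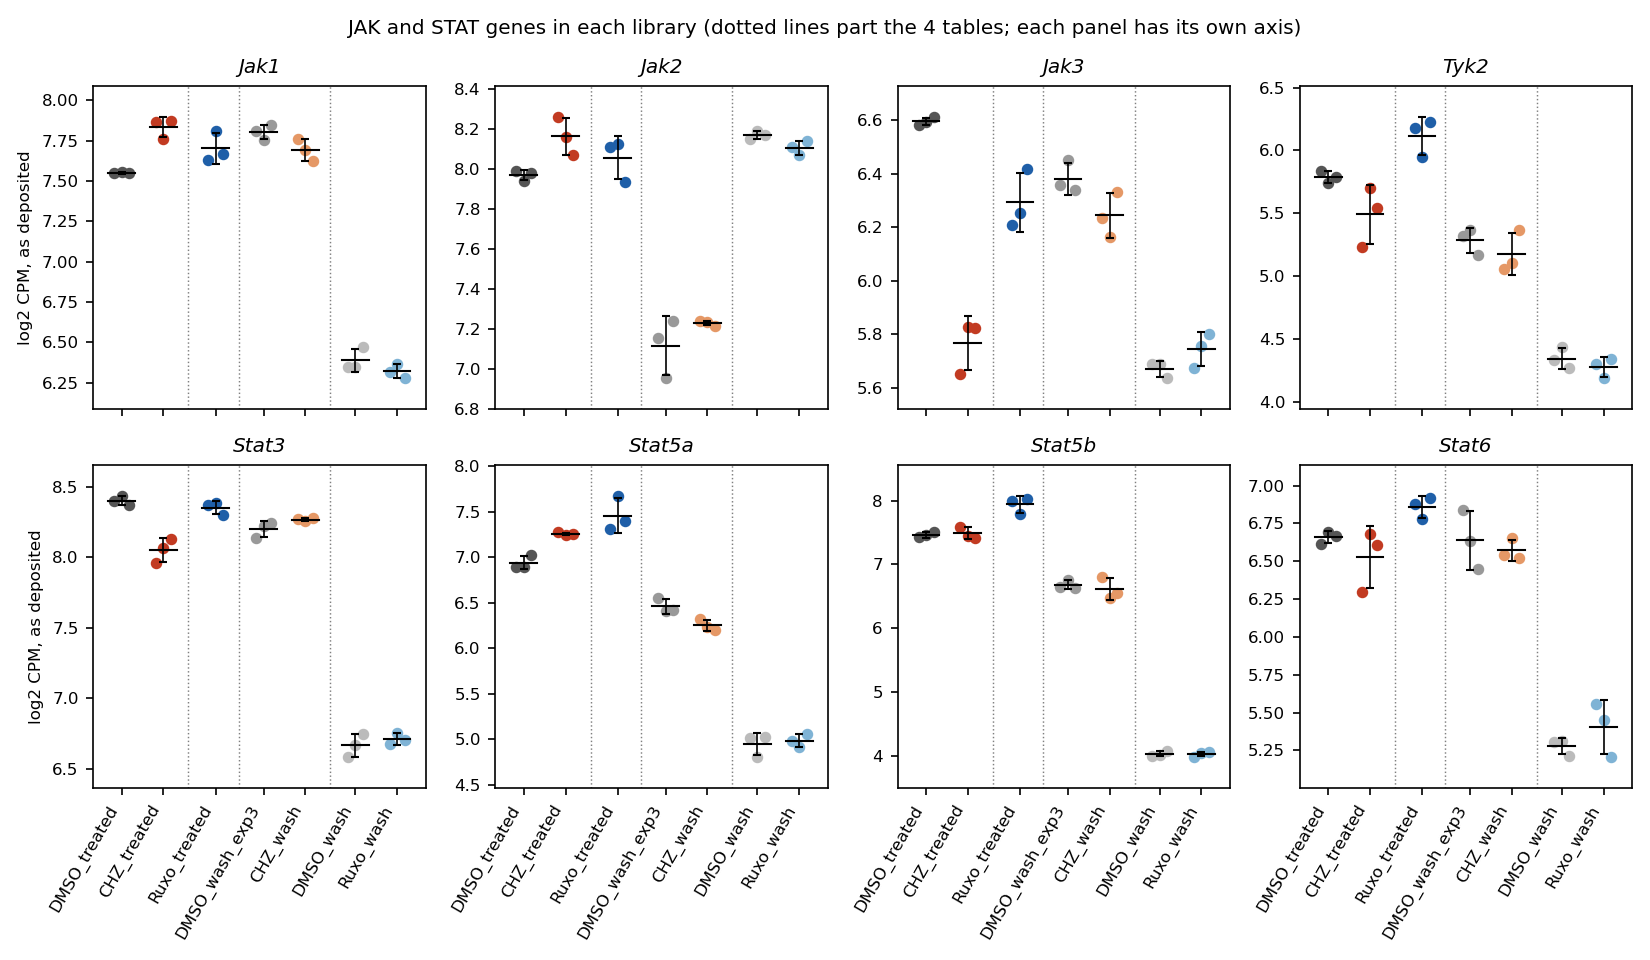
Deposited log2 CPM of the 8 Janus kinase and STAT genes in each library, by group, with the group mean and SD (n = 3); groups of different tables were normalized apart. Jak3 and Stat3 lie lower in CHZ_treated than in DMSO_treated, and Jak1 and Stat5a higher, with no overlap.

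The other genes of the pathway give these changes a setting. Stat2, which acts in type I interferon signalling, had 7.41, 7.40 and 7.46 log2 CPM in DMSO_treated and 6.03, 6.11 and 6.10 in CHZ_treated. The groups were far apart, with a wider gap than in any of Stat3, Stat5a, Stat5b and Stat6. Stat2 fell by 1.35 (SE 0.07, limma with Benjamini-Hochberg adjusted p 4.54e-10). Stat4 was in no table.

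Of 37 listed chains of cytokine receptors, 18 were measured and 17 called after 6 h of CHZ868, 6 higher and 11 lower. Their median log2 fold change was -0.33. This and the list counts that follow are to be read against the 53.2% called among all genes. Il2rg, the common gamma chain to which JAK3 binds, rose by 1.45 (SE 0.22), opposite in direction to Jak3. Ifngr1, a chain of the interferon gamma receptor, rose by 0.48 (SE 0.09) and Il10rb, which pairs with TYK2, by 0.41 (SE 0.15). Il12rb1, a TYK2 partner, fell by 1.87 (SE 0.18), the interleukin-15 chain Il15ra by 1.27 (SE 0.17) and the interleukin-11 chain Il11ra1 by 1.04 (SE 0.36). The calls of 2 of these are close to the threshold. For Il10rb the change was 0.37 without DMSO_treated replicate 1, 0.35 without replicate 2 and 0.33 without CHZ_treated replicate 2, and limma with Benjamini-Hochberg gave adjusted p of 0.109, 0.132 and 0.119. For Il11ra1 the change was -1.04, -0.97 and -1.10 without DMSO_treated replicate 1, 2 or 3, with limma and Benjamini-Hochberg adjusted p of 0.0671, 0.0908 and 0.0557. Without CHZ_treated replicate 2 it was -0.64, with a limma and Benjamini-Hochberg adjusted p of 0.0851, and with quantile normalization it was -0.67 and not called.

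Among the inhibitors of the route, the SOCS genes were mostly lower and the others split. All 8 SOCS genes were measured and 6 were called, all lower, with a median log2 fold change of -0.59. SOCS1 and SOCS3 bind and block Janus kinases and CISH competes for receptor sites of STAT5. Socs1 fell by 5.20 (SE 0.37), Socs3 by 1.47 (SE 0.27) and Cish by 1.39 (SE 0.08), while Socs4 and Socs7 were not called. Other negative regulators gave 8 calls among 15 measured of 16 listed, 4 in each direction, a share near that of all genes, with a median of 0.06. The phosphatase gene Ptpn6 rose by 0.86 (SE 0.09), the SUMO ligase gene Pias1 by 0.69 (SE 0.07) and the ubiquitin ligase gene Cblb by 0.50 (SE 0.08). Usp18, which restrains interferon receptors, fell by 2.46 (SE 0.18), and the adaptor genes Sh2b3 and Sh2b1 fell by 0.81 (SE 0.09) and 0.57 (SE 0.09).

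Of 20 known STAT5 targets, 17 were measured and all 17 were called, 14 lower and 3 higher, with a median log2 fold change of -1.18. Socs1, Socs3 and Cish belong to this list too. The kinase genes Pim1 and Pim2 fell by 3.20 (SE 0.08) and 2.56 (SE 0.17). The myeloid factor gene Spi1 rose by 0.75 (SE 0.09), the cell cycle inhibitor gene Cdkn1a by 0.36 (SE 0.06) and the survival gene Mcl1 by 0.22 (SE 0.06), the last not called with quantile normalization, at 0.08. Stat5a thus rose and Stat5b was not called in the same libraries in which most listed targets of their proteins fell. The phosphorylation of the proteins is not part of these data.

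Partner proteins and importers of the STATs were all measured, 14 of 14, with 9 called, 5 higher and 4 lower, and a median of 0.11. Irf9, which joins STAT2 on DNA, fell by 1.92 (SE 0.11), Nmi by 0.72 (SE 0.14) and Nfkb1 by 0.52 (SE 0.06). The importer gene Kpna2 rose by 0.60 (SE 0.06), Jun by 0.60 (SE 0.11) and the coactivator gene Ncoa1 by 0.38 (SE 0.07). For the kinases the comparison is with 23 other non-receptor tyrosine kinases, of which 12 were measured and 4 called, 2 in each direction, with a median of -0.07 and a median size of 0.15. Abl2 fell by 1.01 (SE 0.08) and Fes by 0.52 (SE 0.08), and Tec rose by 0.29 (SE 0.07). Ptk2b rose by 0.25 (SE 0.07) but was not called with quantile normalization, at 0.14, or without the intensity trend, at 0.25. All 4 Janus kinases were called beside 4 of these 12, a difference in counts that was not tested.

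The genes whose pattern was nearest to Jak3 were found by the root mean square of log2 differences over the 12 inhibitor libraries, each relative to the mean of its controls, among 9972 genes. Tln1, which links integrins to actin, was nearest at 0.09, followed by Mybbp1a, a nucleolar protein gene, at 0.09, and Slc3a2, an amino acid transporter chain, at 0.10, against a median of 0.54 over all genes. In CHZ868 for 6 h their log2 fold changes were -0.79, -0.83 and -0.91. No other gene of the 8 changed enough to be compared in this way.

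Jak3 shares sequence with a neighbour. On GRCm38 it lies at chr8:71676296-71690575 on the plus strand, and Insl3, a hormone gene, is annotated on the same strand within its 3' end. They share 404 exon bases, 7.55% of those of Jak3, and 374 of the 5401 different runs of 31 bases in Jak3 transcripts occur in Insl3, so some reads can belong to either. Insl3 had 2.51, 2.05 and 2.78 log2 CPM in DMSO_treated and -1.64, -1.04 and 0.88 in CHZ_treated. Its CHZ868 libraries were lower than its controls and widely spread, at levels far below those of Jak3. Insl3 fell by 3.05 (SE 0.57, limma with Benjamini-Hochberg adjusted p 0.000381). The part of shared reads in either fall was not tested.

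Tyk2 is overlapped on the opposite strand by the noncoding gene 1700084C06Rik, which shares 554 exon bases with it, 8.07% of those of Tyk2. This gene was not called after 6 h of CHZ868, with a log2 fold change of 0.28 (SE 0.15), opposite in sign to Tyk2. Jak2 shares no run of 31 bases with another annotated mouse transcript on the same strand, and neither does Stat6, which meets the opposite gene Nab2 in 40 bases at its end. Nab2 fell by 1.23 (SE 0.20) while Stat6 was not called.

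Stat5a and Stat5b encode proteins that are nearly alike and bind the same DNA, so their transcripts were also summed. In DMSO_treated, Stat5a made up 40.9, 40.4 and 41.7% of the summed CPM of the pair, and in CHZ_treated 44.5, 46.6 and 47.1%. Every CHZ868 library had a larger Stat5a share than every control. The log2 difference of the summed CPM was 0.15, smaller than the 0.32 of Stat5a alone. In Ruxo_treated the shares were 38.2, 47.9 and 39.1%, where replicate 2 stands apart from the other libraries and the range spans the controls.

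The transcripts of the pair share 836 runs of 31 bases, which is 11.5% of those of Stat5a and 15.1% of those of Stat5b. Within the coding sequences the share is 35.4 and 35.9%. The longest identical stretch has 324 bases, from position 571 to 894 in both, counted from 1 at the start codon, and a read that lies inside it carries no base that tells the genes apart. Its edges are shown because they mark where reads of the pair can first be separated, with 24 bases on each side and the identical stretch in capitals, as in GENCODE M21 transcripts on GRCm38 chromosome 11, Stat5a on the plus and Stat5b on the minus strand.
Stat5a, start of the stretch: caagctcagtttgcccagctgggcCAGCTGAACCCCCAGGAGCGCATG
Stat5b, start of the stretch: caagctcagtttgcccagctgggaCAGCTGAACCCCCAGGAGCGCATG
Stat5a, end of the stretch: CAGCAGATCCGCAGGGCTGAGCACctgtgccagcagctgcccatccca
Stat5b, end of the stretch: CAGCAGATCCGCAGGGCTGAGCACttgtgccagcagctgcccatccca
How the authors' counting divided reads from such stretches between the genes was not tested.

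Stat5b, Stat5a and Stat3 lie side by side on chromosome 11 of GRCm38. Stat5b is at chr11:100780731-100850724 on the minus strand, Stat5a at chr11:100859351-100885169 on the plus strand and Stat3 at chr11:100885098-100939540 on the minus strand. The ends of Stat5a and Stat3 meet tail to tail and overlap in 72 bases. After 6 h of CHZ868 these neighbours went different ways: Stat5b was not called, Stat5a rose and Stat3 fell. Of the 10 nearest annotated genes, 5 on each side, 6 were in the table and all 6 were called, where 53.2% of all genes were. The calls of Cavin1 and Atp6v0a1 are close to the threshold, with limma and Benjamini-Hochberg adjusted p of 0.0460 and 0.0487. The neighbours were not tried under other settings. Rab5c rose by 0.40, Cavin1 by 0.35 and Atp6v0a1 by 0.20, while Kcnh4 fell by 2.58, Ghdc by 0.72 and Naglu by 0.51, so no common direction runs along the region.

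**Figure D2:**
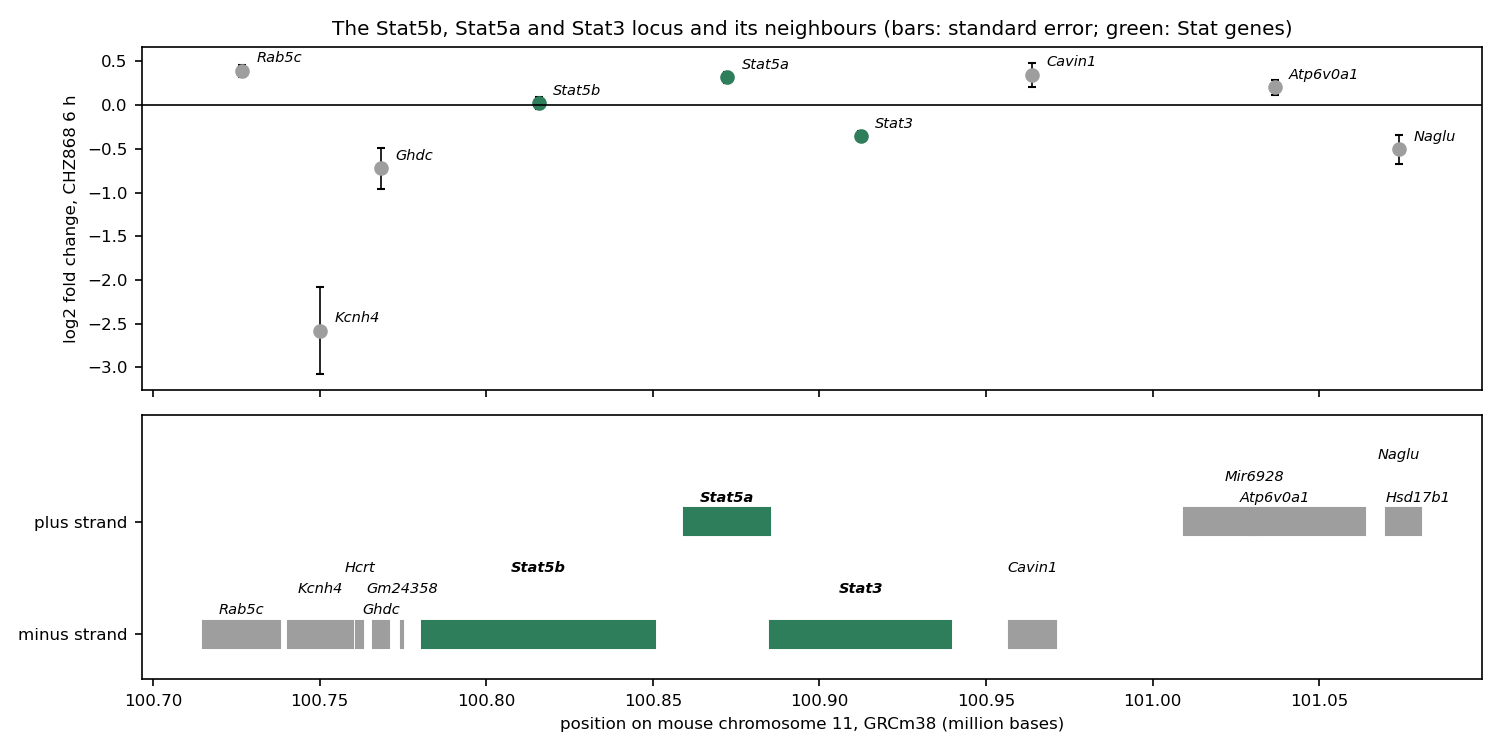
Log2 fold change after 6 h of CHZ868 (bars are SE) and position of Stat5b, Stat5a, Stat3 and their neighbours on mouse chromosome 11, GRCm38, in Mb, by strand. Stat5a lies at 0.32 and Stat3 at -0.35 although their ends overlap.

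RefSeq promoter windows on GRCm38.p6, from 250 bases before to 50 after a transcript start, were found for 8 of the 8 genes. They were searched on both strands for the STAT motifs TTCNNNGAA, held by 8.30% of 32851 mouse promoters, and TTCNNNNGAA, held by 6.95%. They were also searched for the paired interferon motif GAAANNGAAA, held by 3.44% of the promoters, and the E-box CACGTG, held by 7.15%. None of these letters is in a window of the 8 genes. The windows of Stat5a, chr11:100860234-100860533 on the plus strand, and of an inner start of Stat5b, chr11:100822521-100822820 on the minus strand, share an identical run of 16 bases, at position 219 of the first and 228 of the second. They are shown because these genes are paralogues and this pair of windows has the longest shared run, marked in capitals. The other pairs of their windows share runs of 11, 9 and 8 bases. How long a run unrelated windows share was not tested.
Stat5a: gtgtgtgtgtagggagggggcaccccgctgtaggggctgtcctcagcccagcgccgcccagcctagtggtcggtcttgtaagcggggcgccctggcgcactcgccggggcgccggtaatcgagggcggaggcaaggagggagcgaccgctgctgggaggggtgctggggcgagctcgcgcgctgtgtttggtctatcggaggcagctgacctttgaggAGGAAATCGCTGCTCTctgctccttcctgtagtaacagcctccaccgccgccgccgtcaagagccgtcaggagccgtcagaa
Stat5b: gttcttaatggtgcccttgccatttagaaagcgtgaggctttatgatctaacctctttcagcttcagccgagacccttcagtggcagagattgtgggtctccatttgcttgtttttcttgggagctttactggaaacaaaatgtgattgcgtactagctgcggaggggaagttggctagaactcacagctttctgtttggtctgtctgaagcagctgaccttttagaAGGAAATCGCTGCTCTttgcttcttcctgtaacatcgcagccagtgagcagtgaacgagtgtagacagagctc
No comparison of these data measures binding at either window.

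Ruxolitinib for 6 h used the same DMSO_treated libraries as CHZ868 for 6 h, so the effects of the inhibitors share their controls. Because Ruxo_treated is in a table of its own, the values of each library were taken relative to their median over the 11624 genes found in both tables, called centred values here, and no p-value was computed. Groups that do not overlap were counted instead, which was so for 6 of the 8 genes, 5 higher and 1 lower in Ruxo_treated, beside 44.6% of all genes, 24.6% higher and 20.1% lower. The median difference was 0.15 for the 8 and 0.04 for all genes. The balance of directions depends on the scaling: with CPM from recovered reads 2329 genes were higher and 2756 lower without overlap, the median over all genes was -0.02, and 3 of the 8 were higher and 2 lower.

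The STAT5 genes stood out in this comparison. Stat5a had centred log2 values of 1.65, 1.64 and 1.78 in DMSO_treated and 2.03, 2.42 and 2.10 in Ruxo_treated. The ruxolitinib libraries were all higher, replicate 2 the most. Its difference was 0.50 with ruxolitinib, or 0.38 without Ruxo_treated replicate 2, beside 0.32 with CHZ868. Stat5b had 2.18, 2.20 and 2.26 in DMSO_treated and 2.73, 2.54 and 2.74 in Ruxo_treated. Here replicate 2 was the lowest of the ruxolitinib libraries, and still above all controls. Its difference was 0.46 with ruxolitinib, or 0.52 without that library, beside 0.02 with CHZ868. Whether the inhibitors differ from each other was not tested for any gene.

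Tyk2 differed in sign between the inhibitors. Its centred values were 0.59, 0.49 and 0.54 in DMSO_treated and 0.90, 0.70 and 0.93 in Ruxo_treated, all ruxolitinib libraries being higher. Its difference was 0.30 with ruxolitinib beside -0.30 with CHZ868, and with CPM from recovered reads the ruxolitinib difference was 0.25 with overlapping groups. Jak3 had 6.58, 6.59 and 6.61 log2 CPM before centring in DMSO_treated and 6.21, 6.25 and 6.42 in Ruxo_treated. Every ruxolitinib library lay below every control, also after centring. Its difference was -0.30 before and -0.33 after centring, beside -0.83 with CHZ868, the same sign with both inhibitors.

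Jak1 had centred values of 2.30 in each DMSO_treated library and 2.36, 2.56 and 2.37 in Ruxo_treated. The groups did not overlap, but replicate 2 carried much of the difference of 0.13, which was 0.06 without it, beside 0.28 with CHZ868. Stat6 had 1.37, 1.44 and 1.42 in DMSO_treated and 1.61, 1.53 and 1.63 in Ruxo_treated. All ruxolitinib libraries were higher, with a difference of 0.18 beside -0.13 with CHZ868, and the groups overlapped with quantile normalization and with CPM from recovered reads. For Jak2 the groups overlapped, with a difference of 0.06 that was -0.01 with quantile normalization and 0.017 without Ruxo_treated replicate 2, beside 0.19 with CHZ868. Stat3 also overlapped, at -0.07 beside -0.35 with CHZ868, and at -0.038 without Ruxo_treated replicate 3. It did not overlap without Ruxo_treated replicate 2, at -0.10, or without DMSO_treated replicate 3, at -0.09. Nor did Stat3 overlap with quantile normalization, at -0.12, or CPM from recovered reads, at -0.13. Jak2 did not overlap without Ruxo_treated replicate 3, at 0.13.

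The pathway lists with ruxolitinib were as follows, again without a test. Of 17 STAT5 targets 14 did not overlap, all lower, with a median of -1.07, and of 8 SOCS genes 6 did not overlap, all lower, with a median of -0.61. Of 18 receptor chains 9 did not overlap, 5 higher and 4 lower, with a median of -0.14. The other negative regulators gave 6 of 15, the partner proteins 8 of 14 and the other kinases 7 of 12, all to be read against the 44.6% of all genes. Stat5a and Stat5b were thus both higher with ruxolitinib while most listed STAT5 targets were lower.

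**Figure D3:**
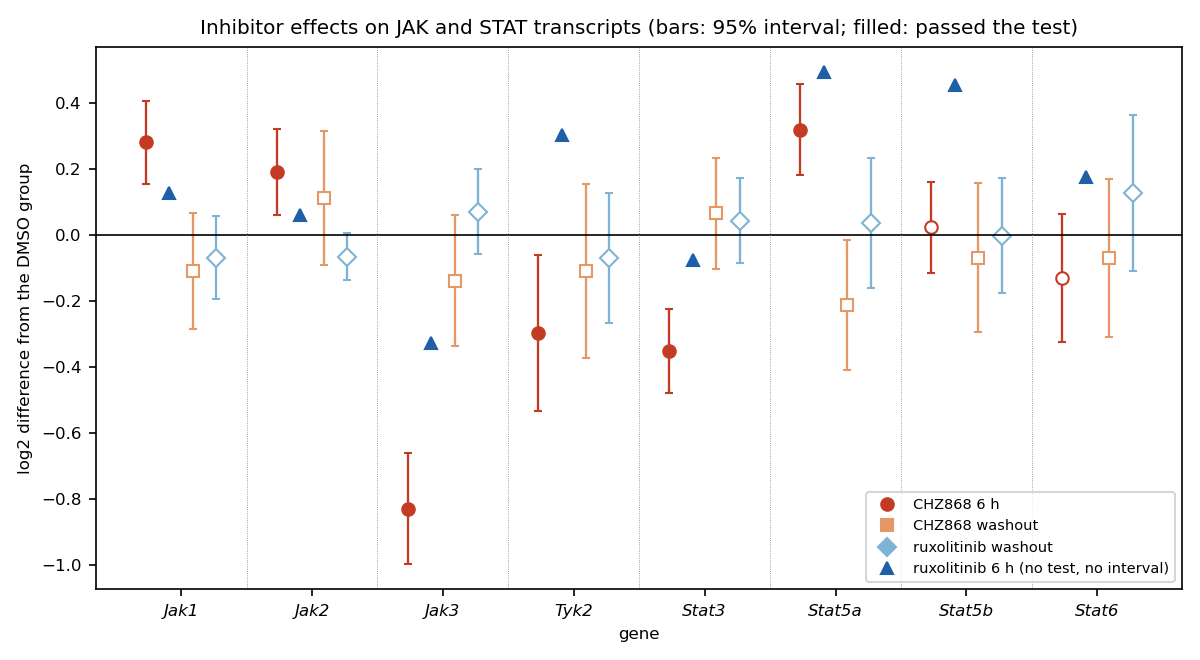
Log2 effect of each inhibitor condition on the 8 genes against its own DMSO group, with 95% limma intervals for the tested comparisons; ruxolitinib for 6 h is shown without an interval and shares its controls with CHZ868 for 6 h. Tyk2 lies at -0.30 with CHZ868 and at 0.30 with ruxolitinib for 6 h.

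After washout of CHZ868, limma called 457 of 11355 genes, 4.02%, at a Benjamini-Hochberg adjusted p under 0.05, 1.96% higher and 2.07% lower, and 2767 had an unadjusted p under 0.05. None of the 8 genes was called: the limma count was 0, with 1 gene, Stat5a, at an unadjusted p under 0.05, and voom on the recovered reads also called 0. The groups did not overlap in 3 of the 8, Jak3, Stat3 and Stat5a, beside 31.0% of all genes. Stat5a had 6.56, 6.41 and 6.42 log2 CPM in DMSO_wash_exp3 and 6.32, 6.24 and 6.20 in CHZ_wash. The washout libraries lay just below the controls. Its log2 fold change was -0.21 (SE 0.09, interval -0.41 to -0.01, limma with Benjamini-Hochberg adjusted p 0.177), opposite in sign to that during exposure. The other 7 had log2 fold changes from -0.14 for Jak3 to 0.11 for Jak2, the latter 0.17 without DMSO_wash_exp3 replicate 3 and 0.033 to 0.17 over all single libraries left out, and no interval of the 8 went beyond -0.41 or 0.32.

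The number of genes called after CHZ868 washout depends on single libraries. It was 1298 without DMSO_wash_exp3 replicate 2 and 1426 without replicate 3, the library with the high mitochondrial share. Without DMSO_wash_exp3 replicate 1 or CHZ_wash replicate 1 or 3 it was 0, and without CHZ_wash replicate 2 it was 1. None of the 8 genes was called in any of these. Without DMSO_wash_exp3 replicate 3 the log2 fold changes of Tyk2 and Stat6 were both -0.16, in place of -0.11 and -0.07. Over all single libraries left out, Tyk2 ranged from -0.20 to -0.049. From the pathway lists limma called 2 genes, with Benjamini-Hochberg adjusted p of 0.0325 for Smarca4, lower by a log2 fold change of -0.43, and 0.0459 for Spi1, at -0.57.

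Whether exposure and washout of CHZ868 differ was tested directly, by the difference between the 6 h effect and the washout effect, each against its own controls. By limma with Benjamini-Hochberg 5261 of 11175 genes were called, 47.1%, with 23.2% higher and 23.8% lower, and among the 8 genes 4 were called, 2 in each direction. Jak3 had a difference of effects of -0.69 (SE 0.12, limma with Benjamini-Hochberg adjusted p 0.000142) and Stat3 one of -0.42 (SE 0.09, adjusted p 0.00172). Stat5a had 0.53 (SE 0.11, limma with Benjamini-Hochberg adjusted p 0.000635) and Jak1 had 0.39 (SE 0.09, adjusted p 0.00289). These 4 genes were also those called in all 15 settings in CHZ868 for 6 h. That 6 h effect is part of this contrast, so the calls are not independent of each other. The count of 4 is to be read against the 47.1% of all genes. Each of the 4 was called in all 20 settings tried. Tyk2 at -0.19 (SE 0.17), Jak2 at 0.08 (SE 0.11), Stat5b at 0.09 (SE 0.12) and Stat6 at -0.06 (SE 0.15) were not called. With 1 library left out, Tyk2 ranged from -0.29 to -0.061, Jak2 from 0.018 to 0.16 and Stat5b from 0.024 to 0.19. The schedule and the experiment cannot be told apart in this contrast.

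After washout of ruxolitinib, limma called 3 of 13085 genes, 0.0229%, at a Benjamini-Hochberg adjusted p under 0.05, all lower, with 920 at an unadjusted p under 0.05. None of the 8 was called by limma, and 0 had an unadjusted p under 0.05. Jak2 was the 1 gene of the 8 whose groups did not overlap, beside 12.9% of all genes. It had 8.15, 8.19 and 8.17 log2 CPM in DMSO_wash and 8.11, 8.07 and 8.14 in Ruxo_wash. The libraries after washout lay a little lower. Its log2 fold change was -0.06 (SE 0.03, interval -0.14 to 0.01, limma with Benjamini-Hochberg adjusted p 0.727). The other 7 ranged from -0.07 for Tyk2 to 0.13 for Stat6, and no interval of the 8 went beyond -0.26 or 0.36. With 1 library left out, Tyk2 ranged from -0.107 to -0.021 and Stat6 from 0.052 to 0.226. With any 1 library left out, limma called 0 or 1 gene of the table: 1 without Ruxo_wash replicate 2, and 0 without Ruxo_wash replicate 1 or 3 or DMSO_wash replicate 1, 2 or 3.

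The washout effects of the inhibitors were compared as ruxolitinib minus CHZ868. By limma with Benjamini-Hochberg 191 of 10078 genes were called, 1.90%, with 0.972% higher and 0.923% lower, and 1903 had an unadjusted p under 0.05, while 0 of the 8 genes were called and 0 had an unadjusted p under 0.05. Stat5a had the difference furthest from 0, 0.25 (SE 0.12, interval -0.00 to 0.50, limma with Benjamini-Hochberg adjusted p 0.269), followed by Jak3 at 0.21 (SE 0.10) and Stat6 at 0.20 (SE 0.15). With 1 library left out, Stat5a ranged from 0.181 to 0.288, Jak3 from 0.169 to 0.253 and Stat6 from 0.096 to 0.294. These ranges overlap, so the order of the genes is not firm. From the lists, limma called the chromatin remodeller gene Smarca4 at 0.45 and the kinase gene Csk at 0.42. The count over all genes rested on single libraries: it was 628 without DMSO_wash_exp3 replicate 2 and 530 without replicate 3. It was 12 without DMSO_wash_exp3 replicate 1, 18, 28 and 36 without Ruxo_wash replicate 1, 2 and 3, 36, 12 and 9 without DMSO_wash replicate 1, 2 and 3, and 92, 11 and 5 without CHZ_wash replicate 1, 2 and 3. Inhibitor and experiment cannot be told apart here.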

How the data were processed

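RNA was sequenced in 21 libraries of Ba/F3 cells. The authors deposited log2 CPM after TMM scaling in edgeR and removal of low genes, and these deposited values were used as they are. Whether the reads of each table were counted with kallisto, as the paper's methods say, or STAR, as the submitters' notes say, is not known. The members and gene lists were chosen with earlier results of these data known. Each inhibitor group was compared with its own DMSO group, 3 libraries against 3, by limma 3.58.1 with an intensity trend in R 4.3.3, two-sided, p-values being adjusted by Benjamini-Hochberg across each whole table, with calls under 0.05. Differences of effects were fitted over the genes both tables hold. Ruxo_treated was compared with DMSO_treated after median centring, without a test. Named genes are the 8 members, up to 3 called genes with the largest rise and fall from each list, and the 3 genes nearest to a member with a called change of at least 0.5. Smarca4, Csk, the overlapping genes and the neighbours of Stat3 were named after their values were seen where that rule does not reach them. Reads were recovered from the spacing of low values. Python 3.11.15 with numpy 2.4.6 and pandas 2.3.3 read GENCODE M21 and the RefSeq promoters. Alternatives were another scaling, no trend, robust fits, a filter at a mean of 1, log2(CPM + 1), voom on recovered reads, replicate number as a block and leaving out each library.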

Additional observations from a re-analysis of the deposited data

Results flagged for a closer look

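Effects of CHZ868 differed between 6 h of exposure and washout in 4 genes, by the limma test of the difference itself with Benjamini-Hochberg adjustment: Jak3 by -0.69, Stat3 by -0.42, Stat5a by 0.53 and Jak1 by 0.39 on the log2 scale. All 4 were called in all 20 settings tried. This count, 4 of the 8 genes, is to be read against all genes in the same test. There, limma with Benjamini-Hochberg called 5261 of 11175, or 47.1%. Schedule and experiment cannot be told apart.

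Tyk2 moved opposite ways in the deposited and median-centred values of all libraries of the inhibitor groups at 6 h, with -0.30 for CHZ868 and 0.30 for ruxolitinib against the same DMSO_treated libraries. This difference was not tested, since the inhibitor groups are in tables normalized apart. The CHZ868 value is -0.17 without CHZ_treated replicate 1, and it was called in 9 of 15 settings. With CPM from recovered reads the ruxolitinib value is 0.25 and its groups overlap.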

How the results depend on the processing

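In CHZ868 for 6 h, Jak1, Jak3, Stat3 and Stat5a were called in all 15 settings, Jak2 in 12 and Tyk2 in 9, and 4 to 6 of the 8 genes were called. With a replicate block 6192 genes and 6 of the 8 were called. The named list genes were checked under alternatives chosen after seeing the data: of 180 values with a library left out 173 kept direction and call, and of 240 under other settings 236 did.

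The number of genes called moved in the washout comparisons, and the cause was not tested. For CHZ868 washout limma with Benjamini-Hochberg called 0 without the trend, with 2562 at an unadjusted p under 0.05, and 0 to 1426 with a library left out. For ruxolitinib washout the count was 9 without the trend, 5 with robust fits, 0 with the replicate block, with 843 at an unadjusted p under 0.05, and 0 to 1 with a library left out. For the difference of washout effects it was 14 without the trend, 6 with the replicate block and 5 to 628 with a library left out. None of the 8 genes was called in these 3 comparisons under any setting, by limma with Benjamini-Hochberg.

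Values of uncalled genes that changed sign were small, and the cause was not tested. With quantile normalization Stat5b was -0.093 in CHZ868 for 6 h, and in the difference of CHZ868 effects Jak2 was -0.079 and Stat5b -0.041. With median centring Stat5b was 0.0071 in ruxolitinib washout. With a library left out, Stat5b ranged from -0.029 to 0.057 in CHZ868 for 6 h, from -0.16 to 0.00079 in CHZ868 washout, from -0.015 to 0.022 in ruxolitinib washout and from -0.0023 to 0.16 in the difference of washout effects. Stat6 ranged from -0.16 to 0.031 in CHZ868 washout and from -0.16 to 0.054 in the difference of CHZ868 effects. Stat5a ranged from -0.031 to 0.076 in ruxolitinib washout, and in the difference of washout effects Tyk2 ranged from -0.019 to 0.13 and Stat3 from -0.064 to 0.018.

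For ruxolitinib for 6 h, 5 to 7 of the 8 genes had groups without overlap. With same-numbered libraries paired as a block, the count was 7 of the 8. That count is of genes whose paired differences all had the same sign, not of groups without overlap. The count over all genes was 5190 of 11624 as reported, and 6586 with that block and its criterion. It was 5085 with CPM from recovered reads, and 5871 to 6654 with a library left out. Voom could not be run for ruxolitinib washout or the difference of washout effects, since no whole reads were recovered for Ruxo_wash and DMSO_wash, and it was not run for the difference of CHZ868 effects. Depth limits single libraries to a counting SD of 0.03 to 0.08 for these genes, and 3 libraries a group leave effects such as that of Stat6 in CHZ868 for 6 h undecided.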

Other observations

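The table of Ruxo_wash and DMSO_wash differs from the others in level. Stat5a made up 66.7, 63.4 and 65.7% of the summed CPM of Stat5a and Stat5b in DMSO_wash, against 48.4, 43.9 and 46.3% in DMSO_wash_exp3. Insl3 had 5.36, 4.91 and 5.07 log2 CPM in DMSO_wash and 5.80, 5.97 and 5.50 in Ruxo_wash, against 2.51, 2.05 and 2.78 in DMSO_treated. The low values of this table, unlike those of the others, do not correspond to whole reads. The paper's methods and the submitters' notes name different pipelines, kallisto on GRCm38 and STAR on GRCm39, and which made this table is not known. The cause of these differences was not tested.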
